A study of Homo sapiens with 6 samples.

Results

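EPCAM, CD24, CD44, PROM1 and MUC1 encode cell surface proteins that are widely used to sort epithelial and progenitor-like tumour cells, and their RNA levels were compared between PC-3 cells and 2 lines derived from them. Members were all probe sets that the platform annotation assigns to exactly 1 symbol equal to one of these 5 names. They comprised 24 of the 54675 probe sets on the array, 1 for EPCAM, 6 for CD24, 13 for CD44, 1 for PROM1 and 3 for MUC1, and so 5 of 19775 named genes. PC-3 is a human prostate cancer line from a bone metastasis. TEM4-18 was derived from PC-3 cells that had migrated across a confluent layer of human lung microvascular endothelial cells, and TEM2-5 came from a second run of that experiment. Each line was measured on 2 arrays, all 3 lines grew in DMEM/F12 with 10% serum, and no line received a treatment. Each derived line is a single isolate. Nothing in the labels states whether a line's arrays used independent cultures, so p-values measure the spread between arrays, which may be technical.

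EPCAM is a homophilic adhesion glycoprotein of epithelia that can be cut at the membrane, releasing an intracellular fragment that takes part in gene regulation. CD24 is a small, heavily glycosylated protein held by a glycosylphosphatidylinositol (GPI) anchor, and it binds P-selectin and SIGLEC10. CD44 is the main receptor for hyaluronan, links to the actin cortex through ezrin, radixin and moesin, and is made in standard and variant forms by alternative splicing, in which ESRP1 favours the variant exons of epithelial cells. PROM1 (CD133) is a cholesterol-binding protein of membrane protrusions, and MUC1 is a transmembrane mucin of the apical surface.

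Promoter sequence was available for 4 of the 5 genes in RefSeq (GRCh38.p14), and the windows of 250 bases before the first annotated start of MUC1 and CD44 are shown because these genes differed between the lines in different ways. Both windows lie outside the annotated gene, and capitals mark the E-box CACCTG or its reverse complement CAGGTG, a motif bound by the repressor ZEB1.
MUC1, chr1:155192916-155193165, minus strand: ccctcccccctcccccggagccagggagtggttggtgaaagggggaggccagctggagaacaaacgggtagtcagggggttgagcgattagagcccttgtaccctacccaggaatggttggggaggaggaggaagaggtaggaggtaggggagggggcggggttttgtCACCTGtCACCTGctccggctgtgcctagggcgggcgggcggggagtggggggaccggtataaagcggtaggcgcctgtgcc
CD44, chr11:35138921-35139170, plus strand: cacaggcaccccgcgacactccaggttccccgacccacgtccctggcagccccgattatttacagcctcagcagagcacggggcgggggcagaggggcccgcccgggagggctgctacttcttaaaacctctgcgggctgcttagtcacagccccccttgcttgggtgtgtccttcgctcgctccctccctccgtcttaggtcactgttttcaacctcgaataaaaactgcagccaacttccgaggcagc

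The MUC1 window holds 2 copies of CACCTG, which begin 82 and 75 bases before the start, and the CD44 window holds 0. Searched on both strands, at least 1 copy was found in 17.5% of 35116 RefSeq promoter windows of this length, and 2 or more in 2.53%. MUC1 also holds TATAAA, which begins 24 bases before the start and occurs in 10.7% of windows, and 4 copies of the GC box GGGCGG, which occurs in 42.6%. The CD44 window has 2 GC boxes and no TATAAA. The annotation gives CD24 3 starts, of which 1 has a copy of CACCTG in its window, and PROM1 4 starts, of which 3 have one. For CD24 that copy begins 249 bases before start 3, and the window of its first start holds 0. EPCAM was the gene without a promoter sequence. These matches describe letters in fixed windows and were not tested as binding sites.

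Across these surface genes, the derived lines had lost most of the EPCAM and CD24 signal, with TEM4-18 lower than TEM2-5. Part of the MUC1 signal was lost, with 2 of 3 probe sets called lower in TEM4-18 and 1 in TEM2-5. Between the derived lines 1 MUC1 probe set was called. CD44 signal remained high in all 3 lines but moved in opposite directions on different probe sets, and PROM1 was near the bottom of the measured range throughout. Values are MAS5 signals in array units. Tests used limma on log2(signal + 51.8), a scale that understates changes of low signals, with Benjamini-Hochberg adjustment over 32768 probe sets whose mean signal exceeded 174, and a threshold of 0.05. Over all tested probe sets 25.6% differed in either direction between TEM4-18 and PC-3, 16.3% between TEM2-5 and PC-3 and 1.78% between the derived lines. Of the 24 member probe sets 22 passed this filter, and those left out were the PROM1 probe set and 1 for CD44. In TEM4-18 against PC-3, 16 of the 22 were lower and 1 was higher, beside 12.8% of all tested probe sets lower and 12.8% higher. In TEM2-5 against PC-3, 13 were lower and 1 was higher, beside 7.59% lower and 8.66% higher. The members were chosen knowing earlier results of these data, so these counts are not independent evidence of a direction. Probe sets of 1 gene share transcripts and are not independent, and in cell lysates fewer cells with a transcript and less RNA per cell cannot be told apart. The 2 comparisons share the PC-3 arrays. Where 1 array is left out below, fewer arrays estimate the spread, so a call can be lost with the difference little changed.

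**Figure D1:**
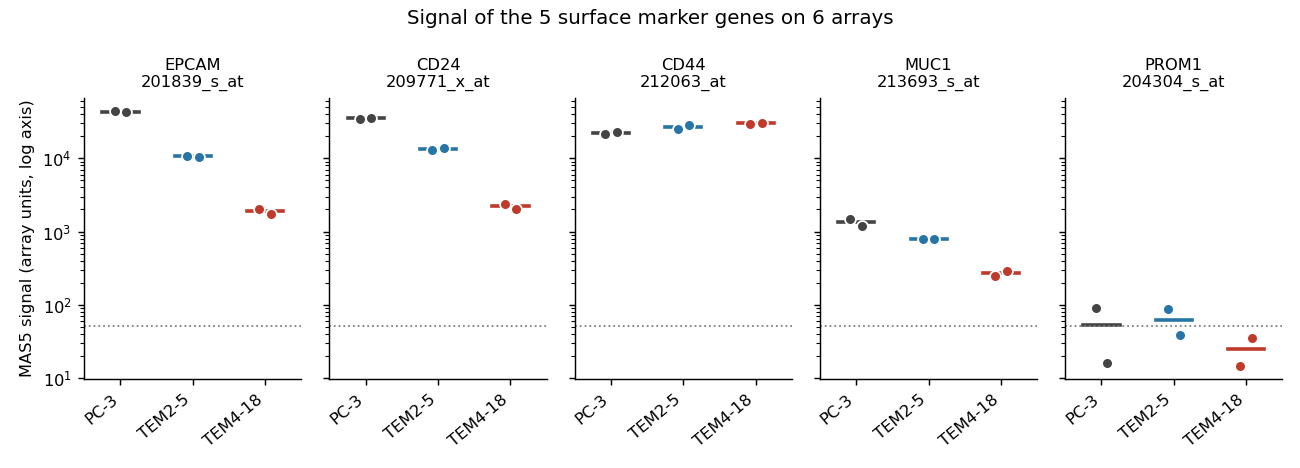
MAS5 signal (array units, log axis) of the brightest probe set of each gene on the 2 arrays of each line; points are arrays, bars are line means, and the dotted line is the pseudocount of 51.8. EPCAM goes from a mean of 43452 in PC-3 to 1880.3 in TEM4-18 with TEM2-5 between them, CD44 on 212063_at is never below 21518, and PROM1 is never above 89.1.

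EPCAM was read by a single probe set, 201839_s_at. Its signals were 44612 and 42292 in PC-3, 10854 and 10398 in TEM2-5, and 2035 and 1726 in TEM4-18, so that the lines kept a clear order and no arrays of different lines overlapped. TEM2-5 retained 24.5% of the PC-3 mean and TEM4-18 4.33%. On the log2 scale the difference from PC-3 was -4.50 ± 0.09 in TEM4-18 (SE, adjusted p = 5.19e-10) and -2.03 ± 0.09 in TEM2-5, and that of TEM4-18 from TEM2-5 was -2.47 ± 0.09 (limma, adjusted p = 1.91e-07). Of 13621 tested genes, each taken by its brightest probe set, EPCAM had the 42nd largest fall in TEM4-18 and the 101st largest in TEM2-5.

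By distance over the 6 arrays, with log2 values centred on the PC-3 mean, the genes most like EPCAM were RBM47, GRHL2 and TNFSF15. RBM47, an RNA-binding protein of epithelia, had signals of 4865 and 4278 in PC-3, 1049 and 1019 in TEM2-5 and 171 and 129 in TEM4-18, at a distance of 0.13 log2 units. GRHL2, a grainyhead-like transcription factor that maintains epithelial genes, went from 4825 and 5285 through 1308 and 1185 to 236 and 136, at a distance of 0.33. TNFSF15, a cytokine of the tumour necrosis factor family, was at a distance of 0.36, with log2 differences of -4.52 in TEM4-18 and -2.06 in TEM2-5.

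Most partners and proteases of EPCAM did not pass the threshold. Of 17 listed genes 15 were measured and tested, and 4 were lower and 0 higher in TEM4-18, with a median log2 difference of -0.085, beside 16.0% of genes lower, 13.3% higher and a median of -0.038 over all tested genes. In TEM2-5, 4 were lower and 1 was higher, with a median of -0.086, beside 10.1% lower, 8.98% higher and a median of -0.024. In both lines the lower genes were ST14, CLDN7, SPINT1 and SPINT2. CLDN7, a claudin that associates with EPCAM, had signals of 6792 and 7405 in PC-3, 1591 and 1276 in TEM2-5, and 477 and 145 in TEM4-18, and its log2 differences were -4.47 ± 0.35 in TEM4-18 and -2.27 ± 0.35 in TEM2-5. ST14 encodes matriptase, a membrane serine protease that cuts EPCAM, and its log2 difference was -5.85 in TEM4-18 and -2.76 in TEM2-5. Its inhibitor SPINT1 gave -3.14 and -2.04, and the related inhibitor SPINT2 -0.84 and -0.62, all past the threshold. Without the mean-variance trend of the fit, only 2 genes of this list were called lower in TEM2-5.

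Unlike ST14, the shedding proteases ADAM10 and ADAM17 did not pass the threshold in either line. ADAM10 had signals between 5609 and 6163 on the 6 arrays, and ADAM17 between 3479 and 3832. For ADAM17 the PC-3 arrays overlapped those of both derived lines, and for ADAM10 those of TEM2-5. The proteases BACE1 and PSEN2 and the nuclear partners FHL2 and CTNNB1 gave log2 differences in TEM4-18 between -0.069 and 0.12, and LEF1 gave -0.76 (adjusted p = 0.102). TSPAN8, a tetraspanin that binds EPCAM, had signals of 411 and 410 in PC-3, 810 and 875 in TEM2-5 and 254 and 288 in TEM4-18. It was higher in TEM2-5 (log2 difference 0.95, limma adjusted p = 0.0167), but this call was lost without PC-3 replicate 1, PC-3 replicate 2, TEM2-5 replicate 1 or TEM2-5 replicate 2, with log2 differences of 0.954, 0.948, 1.003 and 0.9 and adjusted p from 0.0525 to 0.126. In TEM4-18 it gave -0.52 (adjusted p = 0.124). The tetraspanins CD9 and CD81 had log2 differences between -0.086 and 0.10 in both lines, and CD82 gave -0.22 and -0.71 without passing the threshold.

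CD24 fell on all 6 of its probe sets in both lines, so the loss did not depend on the choice of probe set. Of all tested probe sets 12.8% were lower in TEM4-18 and 7.59% in TEM2-5. On the brightest, 209771_x_at, the signals were 34919 and 35215 in PC-3, 12962 and 13710 in TEM2-5, and 2363 and 2045 in TEM4-18, and the lines did not overlap. The log2 difference from PC-3 was -3.96 ± 0.09 in TEM4-18 (limma, adjusted p = 9.57e-10) and -1.39 ± 0.09 in TEM2-5, which left 6.28% and 38.0% of the PC-3 mean. On 216379_x_at the signals were 33040 and 33809, 11883 and 11678, and 1991 and 1906 in PC-3, TEM2-5 and TEM4-18. The order of the lines was therefore PC-3, TEM2-5 and TEM4-18 on both.

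The other CD24 probe sets showed the same order with larger or similar falls. On 208650_s_at the signals were 23973 and 25762 in PC-3, 6606 and 6911 in TEM2-5, and 908 and 942 in TEM4-18, a log2 difference of -4.67 ± 0.09 in TEM4-18 and -1.87 ± 0.09 in TEM2-5. The fall on 208651_x_at was the smallest of the 6 in TEM4-18 (-3.82 ± 0.10), and that on 266_s_at was -4.13 ± 0.10. The dimmest, 209772_s_at, had the largest fall, -4.91 ± 0.36 in TEM4-18 and -2.21 ± 0.36 in TEM2-5, and it also had the least even replicates, with 98 and 379 on the 2 TEM4-18 arrays against 7264 and 7877 in PC-3. Over the 6 probe sets the median log2 difference was -4.10 in TEM4-18 and -1.62 in TEM2-5. Direct comparison of the derived lines gave -2.80 to -2.26, and all 6 passed the threshold, although 209772_s_at did not without the mean-variance trend (limma, adjusted p = 0.181) and ran from -3.463 without TEM4-18 replicate 2 to -1.933 without TEM4-18 replicate 1. The 6 calls stood beside 1.43% of all tested probe sets lower in TEM4-18 than in TEM2-5. In total 8 member probe sets were lower in that comparison and 0 were higher (0.357% of all tested probe sets were higher), the others being those of EPCAM and MUC1 213693_s_at. RefSeq lists 5 CD24 pseudogenes, and probe sets whose names end in _x_at or _s_at can read related transcripts.

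The pattern of CD24 was closest to those of LINC01133, SERPINB5 and STC2 among 13620 other genes. SERPINB5, the epithelial serpin maspin, had signals of 17808 and 15979 in PC-3, 7924 and 6384 in TEM2-5, and 1359 and 951 in TEM4-18, at a distance of 0.46. LINC01133, a long non-coding RNA, was at a distance of 0.40 and went from 932 and 936 to 390 and 335 and then to 23.0 and 18.3, below the pseudocount. Its log2 difference in TEM2-5 was -1.26 (limma, adjusted p = 0.0238) and lost the call without PC-3 replicate 1 (-1.26), PC-3 replicate 2 (-1.25), TEM2-5 replicate 1 (-1.35) or TEM2-5 replicate 2 (-1.16), with adjusted p from 0.0952 to 0.146. STC2, a secreted glycoprotein hormone, was at a distance of 0.57.

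Other GPI-anchored proteins went in both directions. Of 23 listed genes 22 were measured and 20 tested, and in TEM4-18 5 were higher and 4 lower, with a median of 0.27, beside 13.3% of genes higher and 16.0% lower. In TEM2-5, 5 were higher and 2 lower, with a median of 0.16, beside 8.98% higher and 10.1% lower. LY6E, a Ly6 family protein, had signals of 9370 and 10424 in PC-3, 3721 and 3082 in TEM2-5, and 2316 and 2113 in TEM4-18, and its log2 difference was -2.13 in TEM4-18 and -1.53 in TEM2-5. LYPD3, a protein of stratified epithelia, was lower in TEM4-18 (-2.36) and gave -0.60 in TEM2-5 (adjusted p = 0.386). LY6K, a testis-enriched Ly6 protein, rose by 1.80 in TEM4-18 and gave 0.59 in TEM2-5 (adjusted p = 0.290), where it passed without TEM2-5 replicate 1 (1.16, adjusted p = 0.0361) and was 0.02 without TEM2-5 replicate 2.

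CEACAM6, a carcinoembryonic antigen family adhesion protein, gave -1.55 in TEM4-18 (limma, adjusted p = 0.0140), and the call was lost without PC-3 replicate 1 (-1.08, adjusted p = 0.131) or TEM4-18 replicate 2 (-1.31, adjusted p = 0.0809). In TEM2-5 it gave -1.22 (adjusted p = 0.0579) and ran from -0.752 without PC-3 replicate 1 to -1.70 without PC-3 replicate 2, where it passed (adjusted p = 0.034). The number of lower genes in TEM4-18 was 2 without TEM4-18 replicate 2. In TEM2-5 the number higher was 3 without PC-3 replicate 1, PC-3 replicate 2 or TEM2-5 replicate 1, and the number lower was 1 without PC-3 replicate 1, TEM2-5 replicate 1 or TEM2-5 replicate 2. NT5E (CD73), an ectonucleotidase used as a mesenchymal stromal marker, was named after its values were seen: its signals of 3561 and 3724 in PC-3 became 9380 and 8320 in TEM4-18 and 6267 and 6557 in TEM2-5.

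CD44 had high signal in all 3 lines, and its probe sets disagreed on the direction of change. The brightest, 212063_at, read 21518 and 22906 in PC-3, 24925 and 28383 in TEM2-5, and 29482 and 30447 in TEM4-18, so the PC-3 arrays were the lowest and the TEM4-18 arrays the highest. Its log2 difference from PC-3 was 0.43 ± 0.08 in TEM4-18 (limma, adjusted p = 0.00200) and 0.26 ± 0.08 in TEM2-5 (adjusted p = 0.0429). In the opposite direction, 7 of the 12 tested CD44 probe sets were lower in TEM4-18 and 5 in TEM2-5, and 212063_at was the only CD44 probe set called higher in either line. Over all tested probe sets 12.8% were lower in TEM4-18 and 7.59% in TEM2-5. With all 12 averaged, CD44 was lower, by a log2 difference of -0.68 in TEM4-18 (adjusted p = 0.000616) and -0.46 in TEM2-5 (adjusted p = 0.00917). A direction for CD44 as a gene therefore depended on which probe sets were read. The call on 212063_at in TEM2-5 was lost without PC-3 replicate 1 (0.215), PC-3 replicate 2 (0.305), TEM4-18 replicate 1 (0.26), TEM4-18 replicate 2 (0.26) or TEM2-5 replicate 2 (0.167), with adjusted p from 0.0577 to 0.281, and that in TEM4-18 without the mean-variance trend (adjusted p = 0.0711).

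**Figure D2:**
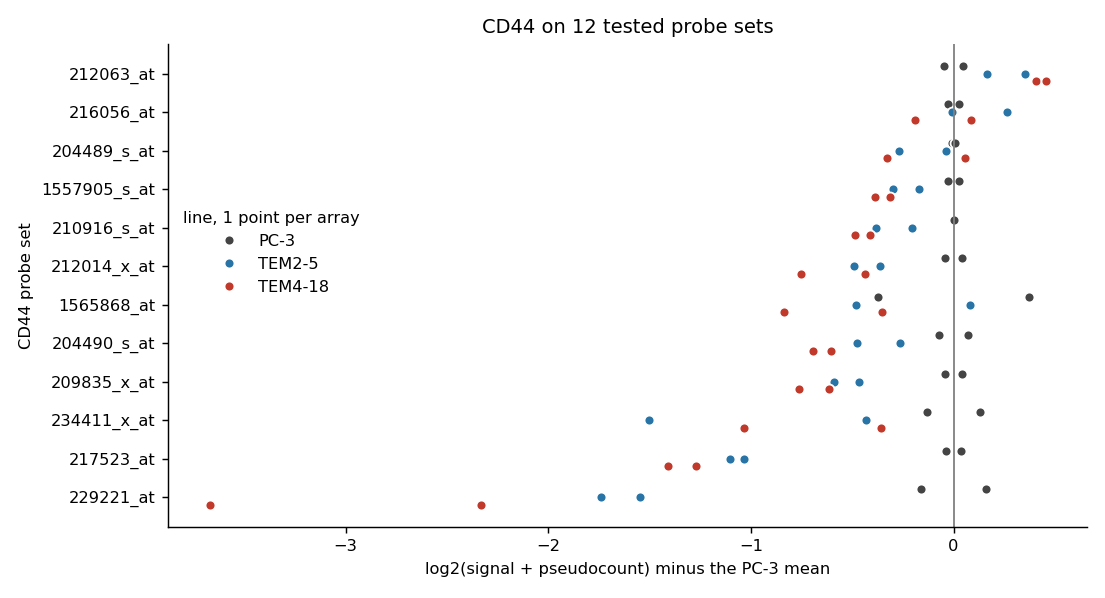
Log2(signal + 51.8) minus the PC-3 mean for each of the 12 tested CD44 probe sets, 1 point per array, with probe sets ordered by the TEM4-18 difference. Only 212063_at has all 4 points of the derived lines above the PC-3 points, and 229221_at lies farthest below, at a mean of -3.00 in TEM4-18.

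The largest CD44 falls were on 229221_at and 217523_at. On 229221_at the signals were 1765 and 2219 in PC-3, 642 and 556 in TEM2-5, and 352 and 108 in TEM4-18, and the lines did not overlap. Its log2 difference was -3.00 ± 0.36 in TEM4-18 (limma, adjusted p = 0.000145) and -1.65 ± 0.36 in TEM2-5 (adjusted p = 0.0104), and the TEM2-5 call was lost without PC-3 replicate 2 (-1.49, adjusted p = 0.0734) or TEM2-5 replicate 2 (-1.55, adjusted p = 0.0708). The difference between the derived lines there, -1.36 ± 0.36, did not pass (adjusted p = 0.105), and without TEM4-18 replicate 1 it was -2.02 (adjusted p = 0.00273). On 217523_at the signals were 3413 and 3606 in PC-3, 1689 and 1602 in TEM2-5, and 1426 and 1289 in TEM4-18, with log2 differences of -1.34 ± 0.12 (adjusted p = 2.58e-05) and -1.07 ± 0.12 in TEM4-18 and TEM2-5.

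The signal of 212063_at over 217523_at within each array, on the log2 scale, was 2.64 and 2.65 in PC-3, 3.84 and 4.10 in TEM2-5, and 4.32 and 4.51 in TEM4-18. Over 229221_at it was 3.57 and 3.34, 5.17 and 5.55, and 6.19 and 7.58 in the same order of lines. Both ratios were higher on each array of the derived lines than on either PC-3 array. However, 212063_at was taken as the brightest probe set, and 217523_at and 229221_at for their large falls in TEM4-18. A rise of the ratios there therefore followed from that choice. These ratios show unequal change between the probe sets and were not tested, and the annotation used here does not place the probe sets on exons or transcript forms.

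A further 5 CD44 probe sets, with PC-3 means between 6569.9 and 14299, were lower in TEM4-18 by smaller amounts. On 209835_x_at the signals were 13878 and 14720 in PC-3, 9472 and 10314 in TEM2-5, and 9300.3 and 8394 in TEM4-18, log2 differences of -0.69 ± 0.09 in TEM4-18 and -0.53 ± 0.09 in TEM2-5, and both derived lines lay below PC-3. On 204490_s_at the TEM4-18 difference was -0.65 ± 0.10, on 212014_x_at -0.60 ± 0.11, on 210916_s_at -0.45 ± 0.10 and on 1557905_s_at -0.35 ± 0.09. The last was not called without PC-3 replicate 1 (-0.32, adjusted p = 0.0664) or TEM4-18 replicate 2 (-0.32, adjusted p = 0.0756).

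In TEM2-5 the calls on 2 of these CD44 probe sets were lost when some single arrays were left out. On 204490_s_at the log2 difference of -0.37 lost its call without PC-3 replicate 2 (-0.30) or TEM2-5 replicate 1 (-0.265), with adjusted p of 0.165 and 0.21. On 212014_x_at that of -0.43 lost its call without PC-3 replicate 1 (-0.469), PC-3 replicate 2 (-0.386), TEM2-5 replicate 1 (-0.363) or TEM2-5 replicate 2 (-0.492), with adjusted p from 0.0526 to 0.139. No CD44 probe set passed the threshold between TEM4-18 and TEM2-5, where the log2 differences ran from -1.36 to 0.27.

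The remaining CD44 probe sets passed no threshold. The second brightest, 204489_s_at, read 12182 and 12274 in PC-3, 10145 and 11914 in TEM2-5, and 9731 and 12710 in TEM4-18, so its arrays overlapped between PC-3 and TEM4-18. Those on 1565868_at, 216056_at and 234411_x_at were dim, between 69.6 and 708 over the 6 arrays. The untested 234418_x_at read between 11.3 and 62.8. By the fixed measure, the genes whose pattern lay closest to that of 212063_at were PCF11, SLC39A14 and CCDC14, at distances of 0.065 to 0.073, with log2 differences in TEM4-18 of 0.42, 0.40 and 0.39. Their values in TEM2-5 were 0.22, 0.29 and 0.25, and CD44 itself had the 1971st largest rise of the 13621 genes in TEM4-18.

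**Figure D3:**
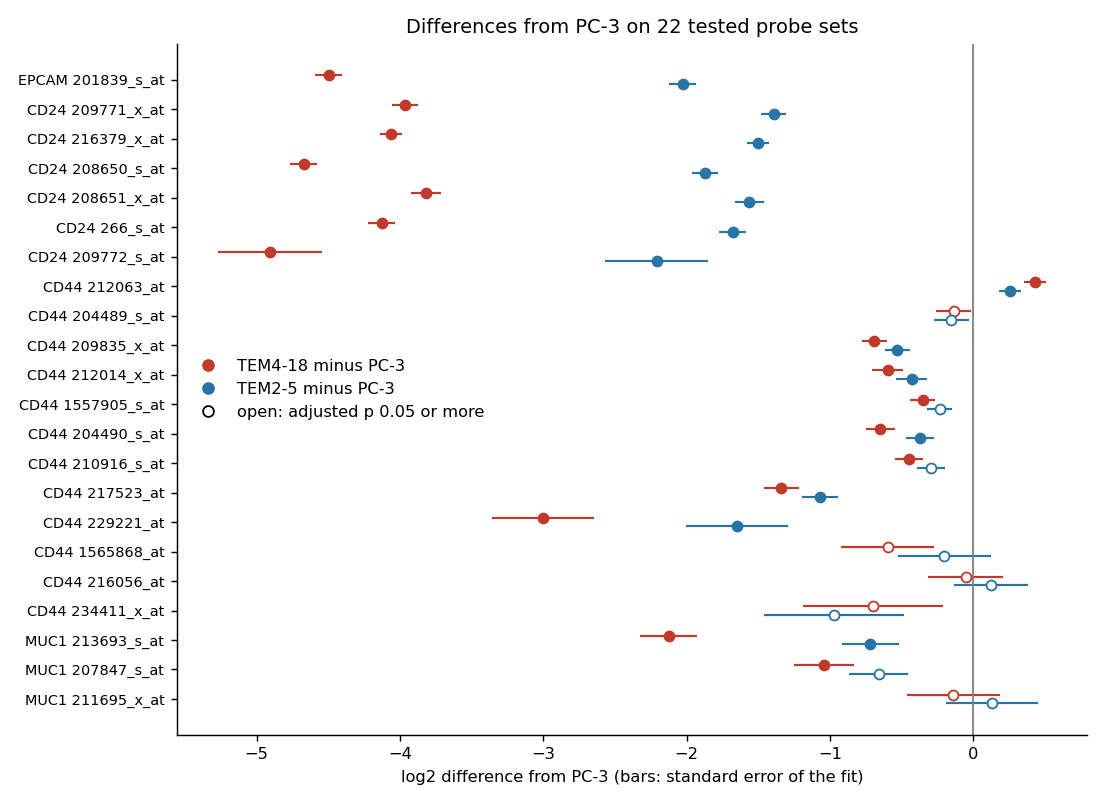
Log2 difference from PC-3 with its standard error for the 22 tested probe sets of EPCAM, CD24, CD44 and MUC1, TEM4-18 in red and TEM2-5 in blue; filled points have an adjusted p under 0.05. All 6 CD24 probe sets and EPCAM lie between -4.91 and -3.82 in TEM4-18, while CD44 spans -3.00 to 0.43.

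Among genes of the hyaluronan and CD44 system, 19 of 22 were measured and 15 tested. In TEM4-18 2 were higher and 3 lower, with a median log2 difference of -0.070, beside 13.3% of genes higher and 16.0% lower, so these counts were near the shares over all genes. In TEM2-5 1 was higher and 2 lower, with a median of -0.12, beside 8.98% higher and 10.1% lower. HAS3, a hyaluronan synthase, read 17098 and 10389 in PC-3, 39954 and 29186 in TEM4-18, and 37391 and 27785 in TEM2-5, and rose by 1.35 ± 0.22 and 1.27 ± 0.22 on the log2 scale (limma, adjusted p = 0.00105 and 0.00290). HAS2, another synthase, gave -0.070 and 0.20 without passing. VCAN, the hyaluronan-binding proteoglycan versican, fell from 3780.2 and 4444 in PC-3 to 631 and 772 in TEM4-18 and 1063 and 1513 in TEM2-5, log2 differences of -2.47 and -1.65.

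ESRP1, the splicing regulator that favours CD44 variant exons, read 12778 and 14293 in PC-3, 1720 and 1803 in TEM2-5, and 22 and 34 in TEM4-18, below the pseudocount, so its log2 difference of -7.41 there understates the fall. The receptor HMMR gave 0.086 in TEM4-18 and -0.045 in TEM2-5. Of the proteins that tie CD44 to actin, RDX and MSN did not pass in either line, with log2 differences of -0.008 and 0.15 in TEM4-18. EZR gave -0.39 in TEM4-18 (limma, adjusted p = 0.0101) and lost the call without PC-3 replicate 2 (-0.36, adjusted p = 0.0576) or TEM4-18 replicate 1 (-0.28, adjusted p = 0.0861). NF2, the related protein merlin, was higher in TEM4-18 (0.50, adjusted p = 0.00671) but not without TEM4-18 replicate 2 (0.35, adjusted p = 0.0613), which left 1 higher gene in the list.

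MUC1 was lower in TEM4-18 on 2 of its 3 probe sets, beside 12.8% of all tested probe sets. On the brightest, 213693_s_at, the signals were 1501 and 1196 in PC-3, 794 and 795 in TEM2-5, and 249 and 287 in TEM4-18, and the lines did not overlap. The log2 difference was -2.13 ± 0.20 in TEM4-18 (limma, adjusted p = 2.64e-05) and -0.72 ± 0.20 in TEM2-5 (adjusted p = 0.0323). The TEM2-5 call was lost without PC-3 replicate 1 (-0.56), PC-3 replicate 2 (-0.876), TEM2-5 replicate 1 (-0.717) or TEM2-5 replicate 2 (-0.718), with adjusted p from 0.0520 to 0.192. The difference between TEM4-18 and TEM2-5, -1.41 ± 0.20 (adjusted p = 0.00463), was not called without TEM2-5 replicate 1 (-1.409, adjusted p = 0.0551) or TEM2-5 replicate 2 (-1.408, adjusted p = 0.0512).

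On 207847_s_at MUC1 read 920.2 and 960 in PC-3, 550 and 603 in TEM2-5, and 496 and 372 in TEM4-18, which again placed both derived lines below PC-3. Its log2 difference was -1.04 ± 0.21 in TEM4-18 (limma, adjusted p = 0.00405) and gave -0.66 ± 0.21 in TEM2-5 (adjusted p = 0.0551), where it passed without TEM4-18 replicate 1 (adjusted p = 0.0490) or TEM4-18 replicate 2 (adjusted p = 0.0454). The dimmest MUC1 probe set, 211695_x_at, ran from 226 to 353, and PC-3 overlapped both derived lines. With the 3 averaged, the MUC1 difference in TEM4-18 was -1.10. The genes most like MUC1 on 213693_s_at were BAMBI, a pseudoreceptor that dampens TGF-beta signals, at a distance of 0.30, the receptor-like GPRC5B at 0.35 and the calcium-binding S100A2 at 0.37.

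Other mucins were mostly dim. Of 14 listed genes 13 were measured and only 5 passed the filter on low signals. Among these MUC5B, a secreted gel-forming mucin, was higher in TEM4-18 and 0 were lower, beside 13.3% of genes higher and 16.0% lower. In TEM2-5 1 was higher and 0 lower, beside 8.98% higher and 10.1% lower, so these counts were near the shares over all genes. MUC5B read 901 and 881 in PC-3, 3091 and 2151 in TEM4-18, and 2367 and 1413 in TEM2-5, log2 differences of 1.48 (limma, adjusted p = 0.000914) and 1.00 (adjusted p = 0.0149). The TEM2-5 call was lost without PC-3 replicate 2 (0.982, adjusted p = 0.062) or TEM2-5 replicate 1 (0.635, adjusted p = 0.12), which left 0 mucins called higher there. The transmembrane MUC16 read between 11 and 43, and MUC4 between 75 and 363.

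Enzymes that build mucin-type O-glycans, the sugars carried by MUC1 and CD24, moved both ways. Of 24 listed 23 were measured and 17 tested, with 4 higher and 5 lower in TEM4-18 (median -0.040), beside 13.3% of genes higher and 16.0% lower. In TEM2-5 3 were higher and 3 lower (median 0.16), beside 8.98% higher and 10.1% lower. B3GNT3, which extends core 1 O-glycans, read 1576 and 1680 in PC-3, 656 and 319 in TEM4-18 and 743 and 463 in TEM2-5, with a log2 difference of -1.71 in TEM4-18. GALNT12, an initiating transferase, was lower in TEM4-18 (-1.18) and gave -0.36 in TEM2-5 (adjusted p = 0.130). C1GALT1, the core 1 synthase, read 5418 and 5030 in PC-3 and 2713 and 2976 in TEM4-18, a log2 difference of -0.87. GALNT14 rose by 1.05 in TEM4-18 and gave 0.61 in TEM2-5 (adjusted p = 0.0605), where it was 0.304 without PC-3 replicate 1 and passed without PC-3 replicate 2 (0.915, adjusted p = 0.0114).

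In TEM2-5, B3GNT3 (-1.39) was not called without PC-3 replicate 2 (-1.35, adjusted p = 0.0561) or TEM2-5 replicate 2 (-1.08, adjusted p = 0.0876), and C1GALT1 (-0.48) not without PC-3 replicate 1 (-0.42, adjusted p = 0.0699) or TEM2-5 replicate 2 (-0.43, adjusted p = 0.088). The number of lower O-glycan genes in TEM4-18 was 3 without PC-3 replicate 1 or TEM4-18 replicate 1, and in TEM2-5 it was 1 without TEM2-5 replicate 2.

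PROM1 read 89.1 and 15.9 in PC-3, 87.2 and 38.4 in TEM2-5, and 14.5 and 35.1 in TEM4-18. Its mean lay below the filter, the PC-3 arrays overlapped those of both derived lines, and no difference was detectable at this signal. With no filter the adjusted p was 0.693 in TEM4-18 and 0.874 in TEM2-5. Its relative PROM2, another protein of membrane protrusions, was well above the filter, with 2170.1 and 1923 in PC-3, 988 and 1071 in TEM4-18, and 1084 and 629 in TEM2-5. PROM2 was lower in TEM4-18 by a log2 difference of -0.96 (limma, adjusted p = 0.00869), not called without PC-3 replicate 1 (-0.87, adjusted p = 0.053), and in TEM2-5 by -1.25 (adjusted p = 0.00332).

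In the list of prominin relatives and other progenitor surface markers, 15 of 21 genes were tested, with 2 higher and 4 lower in TEM4-18 (median -0.067), beside 13.3% of genes higher and 16.0% lower. In TEM2-5 2 were higher and 2 lower (median -0.016), beside 8.98% higher and 10.1% lower, and the numbers higher in TEM4-18 and lower in TEM2-5 were near those shares. LGR5, an R-spondin receptor of epithelial stem cells, read 6 and 108 in PC-3, 737 and 777 in TEM2-5, and 2058 and 2288 in TEM4-18. ALDH1A3, a retinal dehydrogenase behind much of the aldehyde dehydrogenase activity used to sort tumour cells, read 53827 and 58032 in PC-3, 21947 and 24812 in TEM2-5, and 10461 and 14079 in TEM4-18, log2 differences of -2.20 in TEM4-18 and -1.26 in TEM2-5. L1CAM, a neural adhesion molecule, read 831 and 1079 in PC-3 and 10.9 and 201 in TEM4-18, where its replicates were uneven. It was lower in TEM4-18 (-2.99, with -1.98 without TEM4-18 replicate 1 and -3.99 without TEM4-18 replicate 2) and gave -1.32 in TEM2-5 (adjusted p = 0.125), where it passed without TEM4-18 replicate 1 (adjusted p = 0.00701) or TEM4-18 replicate 2 (adjusted p = 0.0161).

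ENG (endoglin), a TGF-beta co-receptor, gave 1.34 in TEM4-18 (limma, adjusted p = 0.00629), not called without TEM4-18 replicate 1 (1.19, adjusted p = 0.0556), and 1.09 in TEM2-5 (adjusted p = 0.0277), not called without PC-3 replicate 1 (0.983), PC-3 replicate 2 (1.197) or TEM2-5 replicate 2 (0.765), with adjusted p from 0.0559 to 0.231. The number of progenitor markers called higher was 1 in TEM4-18 without TEM4-18 replicate 1, and 1 in TEM2-5 without PC-3 replicate 2 or TEM2-5 replicate 2. ITGA2, an integrin subunit that binds collagen, read 8853 and 8969 in PC-3, 6204 and 5687 in TEM4-18 and 8638 and 7936 in TEM2-5, and was lower in TEM4-18 (-0.58, limma adjusted p = 0.0008). ALCAM, ITGA6, ITGB1 and MET, like ITGA2 named after their values were seen, had high signals of 16838 to 68351 and log2 differences between -0.079 and 0.24 in both lines, without passing the threshold.

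**Figure D4:**
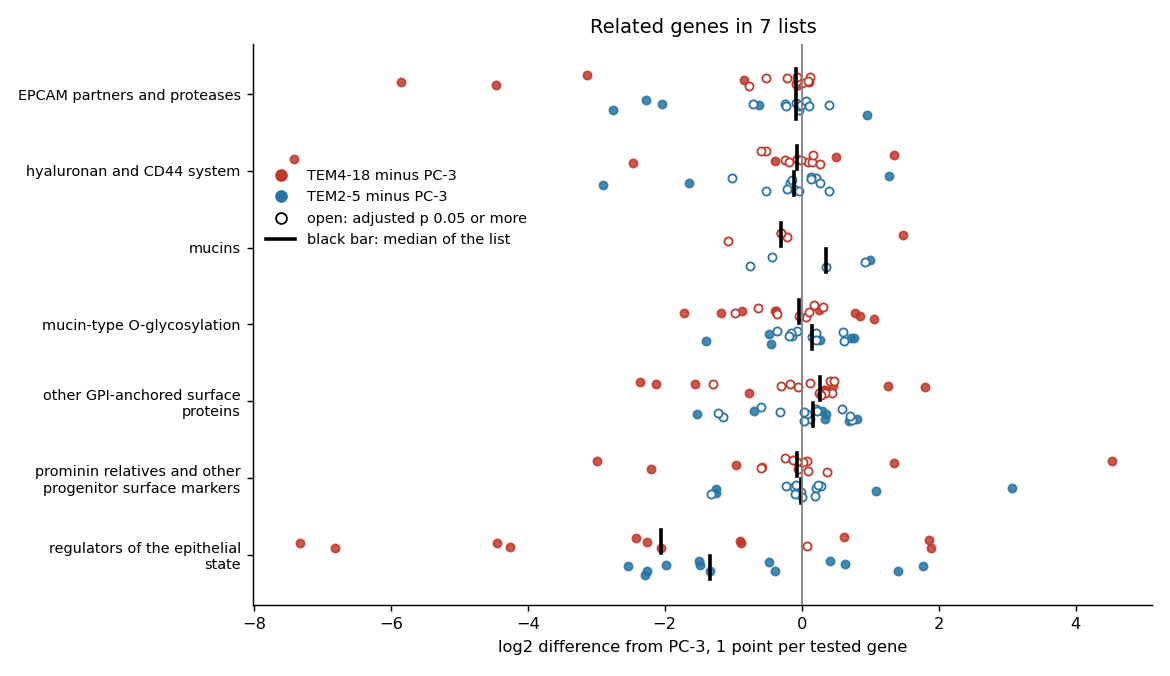
Log2 difference from PC-3 for each tested gene of 7 lists of related genes, 1 point per gene, TEM4-18 in red and TEM2-5 in blue, filled where the adjusted p is under 0.05; black bars are list medians. Medians lie between -0.31 and 0.36 for 6 lists, and at -2.06 and -1.34 for regulators of the epithelial state.

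Of 17 regulators of the epithelial state, E-cadherin included, 13 were tested, with 9 lower and 3 higher in TEM4-18 (median -2.06), beside 16.0% of genes lower and 13.3% higher. In TEM2-5 9 were lower and 4 higher (median -1.34), beside 10.1% lower and 8.98% higher. This list was chosen knowing earlier results of these data and is not independent evidence of a direction. It mixes genes that maintain and genes that repress the epithelial state, so its median depends on that mix. CDH1, which encodes E-cadherin, read 14396 and 15147 in PC-3, 2520 and 2479 in TEM2-5, and 26 and 58 in TEM4-18. EHF, an epithelial ETS factor, read 8269 and 7560, 1817 and 1426, and 33 and 6 in the same order of lines, and OVOL2, a repressor of mesenchymal genes, 4530 and 4103, 807 and 876, and 156 and 196. These genes kept the order of EPCAM and CD24, with TEM2-5 between the other lines. ZEB1, which represses epithelial genes, read 1859 and 1824 in PC-3, 6244 and 6594 in TEM2-5, and 6866 and 7074 in TEM4-18, a difference between the derived lines of 0.12 ± 0.10 (log2, limma, adjusted p = 0.700). The other higher genes were TWIST2 (1.86 in TEM4-18 and 1.41 in TEM2-5), TWIST1 (0.62 and 0.42) and, in TEM2-5 only, SNAI2 (0.64). Without the mean-variance trend only 2 genes were called higher in TEM2-5. In TEM2-5 the number of higher genes was 2 without PC-3 replicate 2 or TEM2-5 replicate 2.

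Some calls on named genes depended on the mean-variance trend, which lets the value toward which each probe set's spread is drawn vary with signal. In TEM4-18 against PC-3 the limma calls lost without it, with their adjusted p, were CD44 212063_at (0.0711), 212014_x_at (0.0561), 1557905_s_at (0.0951) and 210916_s_at (0.0618), NF2 (0.0812), EZR (0.106), CEACAM6 (0.0663), PROM2 (0.0688), PCF11 (0.0743), SLC39A14 (0.0785) and CCDC14 (0.092). In TEM2-5 against PC-3 the member calls lost were CD24 209772_s_at (0.066), CD44 212063_at (0.253), 209835_x_at (0.0671), 212014_x_at (0.16), 204490_s_at (0.162) and 229221_at (0.0997), and MUC1 213693_s_at (0.0576). Of the other genes followed singly, those that lost a call there were CLDN7 (0.0559), HAS3 (0.0826), MUC5B (0.118), B3GNT3 (0.0943), C1GALT1 (0.0798), ENG (0.074), PROM2 (0.0566), SLC39A14 (0.201) and GPRC5B (0.0621). Other list genes, such as SPINT2, TWIST1, TWIST2 and SNAI2, were followed only through list counts. In TEM2-5 the trend's removal left 2 EPCAM partners and proteases lower and 2 regulators higher. It left 0 O-glycan enzymes higher and 0 lower, and 1 GPI-anchored gene higher and 1 lower. In TEM4-18 it left 3 O-glycan enzymes lower, and 3 GPI-anchored genes higher and 2 lower. Among the genes nearest to CD44 and MUC1 in pattern, more calls were lost in other settings. With no filter these were PCF11 in TEM4-18 (limma, adjusted p = 0.0551) and SLC39A14 (0.0693) and BAMBI (0.0753) in TEM2-5. Leaving out any 1 array lost the PCF11 call in TEM4-18. Leaving out some single arrays lost those of CCDC14 in TEM4-18 and of SLC39A14, BAMBI and GPRC5B in TEM2-5.

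Line identity and other cell types were checked with marker lists. Of 10 measured prostate epithelial markers 5 were tested, and KRT5, KRT14, KLK2, ACP3 and FOLH1 lay below the filter. The luminal keratins KRT8 (-1.78 in TEM4-18 and -1.32 in TEM2-5) and KRT18 (-1.02 and -0.97) were lower, HOXB13 (0.69 and 0.44) and TMPRSS2 (1.71 and 1.51) were higher, and KLK3 did not pass. The summed signal of the 10, mostly KRT18 and KRT8, was 88733 to 93804 in PC-3, 49221 to 52459 in TEM4-18 and 50673 to 53972 in TEM2-5. The median signal of the 10 went the other way. It was 430.2 to 559.9 in PC-3, 646.1 to 684 in TEM4-18 and 593.8 to 641.6 in TEM2-5. Among 10 endothelial markers CDH5, VWF, TEK, CLDN5, ERG, EMCN and TIE1 lay below the filter, PECAM1 did not pass the threshold, and KDR (2.40 in TEM4-18 and 2.29 in TEM2-5) and ROBO4 (0.73 and 0.78) were higher. The endothelial sum was 2173 to 2526 in PC-3, 3014 to 4288 in TEM4-18 and 3706 to 3808 in TEM2-5. The endothelial median was 113.8 to 142.3 in PC-3, 105.8 to 120.5 in TEM4-18 and 89.45 to 130.4 in TEM2-5. The summed signal of 8 fibroblast markers was 9208 to 10854 in PC-3 and 20133 to 25432 in the derived lines, most of it COL1A1. Their median signal was 274 to 285 in PC-3, 87.6 to 90.9 in TEM4-18 and 253 to 320.1 in TEM2-5. In TEM4-18 COL1A1 was higher (1.44) while LUM (-3.19) and PDGFRA (-0.77) were lower, and in TEM2-5 COL1A1 (1.39) and PDGFRA (1.32) were higher. The summed signal of 6 leukocyte markers, mostly LCP1, was 11687 to 12772 in PC-3 and 6969.8 to 8561 in the derived lines. The part of these markers in the results above was not tested.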

How the data were processed

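RNA of the 6 samples was measured on 1-colour Affymetrix arrays. The deposited values are MAS5 signal intensities on a linear scale, per the submitters' processing notes, and each array's 2% trimmed mean was 1500.17 to 1500.18, so the arrays were already scaled to a common mean. Probe sets were named from GEO's platform annotation, in which 41097 have 1 symbol, 1801 several and 11777 none. A pseudocount of 51.78 (the 20th percentile of all values) was added before log2, and 32768 probe sets with a mean above 173.8 (the 40th percentile) were tested with limma 3.58.1 in R 4.3.3 (lmFit on 3 line means, eBayes with a mean-variance trend, 3 residual degrees of freedom), with two-sided p-values adjusted by Benjamini-Hochberg across the whole set. The scripts were checked on simulated data, with changes of 1 or 2 on the log2 scale placed only in bright probe sets. Dim probe sets and smaller changes were not covered by that check. A gene was represented by its brightest probe set with 1 symbol. Named genes were up to 4 per list with the largest change past the threshold against PC-3, the 3 nearest patterns of each member, and PROM2, CLDN7, ESRP1, HAS2, HAS3, EZR, MSN, ZEB1 and CDH1; any other list gene named was chosen after its values were seen. Members and lists were chosen with earlier results of these data known. For 1 TEM2-5 array the replicate number in the title (2) differs from that in another label, and the title was used. The arrays number 6, which limits the precision.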

Additional observations from a re-analysis of the deposited data

Results flagged for a closer look

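The loss relative to PC-3 differed between the derived lines for EPCAM, the 6 CD24 probe sets and 1 of 3 MUC1 probe sets, by a direct limma test of TEM4-18 against TEM2-5. On the log2 scale TEM4-18 minus TEM2-5 was -2.471 for EPCAM. For CD24 it was -2.572 on 209771_x_at, -2.565 on 216379_x_at, -2.802 on 208650_s_at, -2.259 on 208651_x_at, -2.451 on 266_s_at and -2.698 on 209772_s_at. The last lost its call without the mean-variance trend (limma, adjusted p = 0.181) and ran from -3.463 to -1.933 with 1 array left out. For MUC1 213693_s_at it was -1.409, and this call was lost without either TEM2-5 array, without the trend and as the mean of the probe sets. The other MUC1 probe sets gave -0.381 (207847_s_at, limma, adjusted p = 0.521) and -0.269 (211695_x_at, 0.813). In each case both TEM4-18 arrays lay below both TEM2-5 arrays.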

How the results depend on the processing

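EPCAM and the brightest CD24 probe set kept their direction and their call in the 3 comparisons under every alternative run. The number of probe sets called was 8396 in TEM4-18 against PC-3, 5325 in TEM2-5 against PC-3 and 584 between the derived lines. Without the mean-variance trend these were 5360, 2320 and 125, and with no filter the last was 300. With 1 array left out, TEM2-5 against PC-3 gave 2825 to 5135 (2825 and 2968 without the second and first TEM2-5 array, and 3323 without PC-3 replicate 2) and the derived lines 218 to 550 (218 and 265 without the first and second TEM2-5 array, and 321 without TEM4-18 replicate 2). The lone array of a line was then assumed to vary like the others. Fewer arrays also estimated the spread, so a lost call need not mean a moved difference. The CD44 difference on 212063_at in TEM4-18 (0.432) lost its call without the trend (adjusted p = 0.0711), and that in TEM2-5 (0.26) with no filter (0.108) or no trend (0.253). With 1 array left out the TEM2-5 value ran from 0.167 to 0.354. As the mean of all its tested probe sets CD44 reversed to -0.677 and -0.459 against PC-3 and -0.218 between the derived lines. MUC1 in TEM2-5 (-0.718) lost its call with no filter (0.0821), with no trend (0.0576) and as the mean of its probe sets (-0.416), with values from -0.876 to -0.56 with 1 array left out. Between the derived lines MUC1 (-1.409) lost it without the trend (0.0517) and as the mean (-0.686), with values from -1.494 to -1.323. Leaving arrays out reversed differences that had passed no threshold. In TEM4-18 against PC-3 these were CD44 204489_s_at (-0.328 to 0.056), 216056_at (-0.19 to 0.084) and MUC1 211695_x_at (-0.381 to 0.105), in TEM2-5 against PC-3 CD44 1565868_at (-0.571 to 0.172), 216056_at (-0.008 to 0.262) and MUC1 211695_x_at (-0.112 to 0.375), and between the derived lines 204489_s_at (-0.175 to 0.208) and 234411_x_at (-0.264 to 0.807). Quantile normalization turned 216056_at to 0.009 in TEM4-18 and 204489_s_at to -0.001 between the derived lines. Arrays with the same replicate number deviated together only weakly (correlations 0.062, 0.08 and 0.098), and a fit with the replicate block gave 9445, 6429 and 874 calls and changed 6 of 179 results. Except where stated, the cause of these changes was not tested. Signals near the pseudocount, such as those of PROM1, set the limit of what could be compared.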
